A study of Mus musculus with 2 samples.

Results

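In a Pax7-YFP ChIP of mouse muscle stem cells, 582 of the 2958 peaks on chromosomes 1 to 19 lay at isolated protein-coding gene ends. Their share was 19.7% (Wilson 95% interval 18.3 to 21.1%). A peak was counted when its summit was within 1000 bp of either end of a protein-coding gene and no second protein-coding gene had an end within 5000 bp of it. The peak list held 2977 regions in all, and the members were chosen by position only, so their strength, orientation and sequence were not used in the choice. They belonged to 569 genes, of which 13 had 2 such peaks. The peaks came from chromatin immunoprecipitation with sequencing (ChIP-seq): chromatin was pulled down with a GFP antibody, a kind that generally also binds the related yellow fluorescent protein (YFP), and input DNA was the control. Both libraries were from untreated muscle stem cells sorted by flow cytometry from C57BL/6 mice labelled Pax7-YFP KI (a knock-in), with 10622111 filtered tags for the ChIP and 20429667 for the input. The labels used here do not give how YFP is joined to Pax7, how many mice were pooled, or their age. There was 1 library of each kind, so nothing was tested between libraries, and a ChIP from cells without the tag was not analysed here.

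PAX7 is the transcription factor by which skeletal muscle stem cells are recognised, and the adult muscle needs it to keep them. It carries a paired domain and a paired-class homeodomain, and each can contact DNA. The paired domain recognises sites built around a GTCACGC-like core, whereas the homeodomain recognises TAAT sites, alone or as an inverted pair. Promoters of mouse genes fall broadly into CpG-rich ones, typical of widely expressed genes, and CpG-poor ones, more often found at tissue-specific genes.

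The promoters of the strongest members show the sequence around their 5′ ends. Shown here are the 250 bases upstream of the start site (RefSeq, GRCm38.p6) for the 6 members with the highest fold enrichment whose summit fell in a 300-base promoter, 250 bases before to 50 after the start. Plekhf1 follows as the strongest member beyond these with the paired-domain core in the bases shown, and Alkbh5 as the strongest after it with the homeodomain site. Each is written 5′ to 3′ along the gene. Capitals mark the hexamer GTCACG or its reverse complement, except in Alkbh5, where they mark the homeodomain site TAATTA. The hexamer is the first 6 bases of the paired-domain core and was adopted after these promoters had been read.
Nhlrc1 (chr13:47014851-47015100, minus strand): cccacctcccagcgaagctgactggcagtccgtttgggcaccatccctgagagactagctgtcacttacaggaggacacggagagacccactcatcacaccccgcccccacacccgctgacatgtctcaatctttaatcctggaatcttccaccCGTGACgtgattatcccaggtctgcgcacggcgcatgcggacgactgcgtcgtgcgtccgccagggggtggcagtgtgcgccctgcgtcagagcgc
Dusp23 (chr1:172632975-172633224, minus strand): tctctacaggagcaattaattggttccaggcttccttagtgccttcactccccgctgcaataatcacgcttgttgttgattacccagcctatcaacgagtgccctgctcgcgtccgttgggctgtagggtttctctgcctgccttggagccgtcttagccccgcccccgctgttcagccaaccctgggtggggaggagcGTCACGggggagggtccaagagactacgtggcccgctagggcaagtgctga
Spsb1 (chr4:149955007-149955256, minus strand): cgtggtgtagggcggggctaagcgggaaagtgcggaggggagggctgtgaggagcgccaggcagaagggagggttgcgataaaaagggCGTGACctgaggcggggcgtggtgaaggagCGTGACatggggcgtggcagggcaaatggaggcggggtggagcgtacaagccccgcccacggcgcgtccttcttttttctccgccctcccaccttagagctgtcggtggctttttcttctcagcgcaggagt
Mphosph8 (chr14:56667998-56668247, plus strand): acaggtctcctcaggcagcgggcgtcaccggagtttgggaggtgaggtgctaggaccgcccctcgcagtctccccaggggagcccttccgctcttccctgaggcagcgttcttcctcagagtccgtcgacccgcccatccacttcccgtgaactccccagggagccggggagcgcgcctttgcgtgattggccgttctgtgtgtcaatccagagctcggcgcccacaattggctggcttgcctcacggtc
Hdac5 (chr11:102230173-102230422, minus strand): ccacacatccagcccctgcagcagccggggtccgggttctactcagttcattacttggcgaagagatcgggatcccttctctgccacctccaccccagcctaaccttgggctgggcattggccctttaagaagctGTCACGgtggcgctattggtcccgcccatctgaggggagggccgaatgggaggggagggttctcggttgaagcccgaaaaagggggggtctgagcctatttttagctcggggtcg
Rnd3 (chr2:51149112-51149361, minus strand): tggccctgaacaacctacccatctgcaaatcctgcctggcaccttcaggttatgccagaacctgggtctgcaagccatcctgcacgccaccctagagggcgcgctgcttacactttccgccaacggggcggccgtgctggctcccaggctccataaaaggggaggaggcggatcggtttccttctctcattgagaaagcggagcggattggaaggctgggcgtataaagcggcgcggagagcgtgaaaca
Plekhf1 (chr7:38227995-38228244, minus strand): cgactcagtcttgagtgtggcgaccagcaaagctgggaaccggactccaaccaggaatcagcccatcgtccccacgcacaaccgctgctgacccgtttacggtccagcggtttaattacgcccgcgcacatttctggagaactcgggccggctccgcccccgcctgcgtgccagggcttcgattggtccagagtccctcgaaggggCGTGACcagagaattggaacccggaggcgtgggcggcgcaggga
Alkbh5 (chr11:60537433-60537682, plus strand): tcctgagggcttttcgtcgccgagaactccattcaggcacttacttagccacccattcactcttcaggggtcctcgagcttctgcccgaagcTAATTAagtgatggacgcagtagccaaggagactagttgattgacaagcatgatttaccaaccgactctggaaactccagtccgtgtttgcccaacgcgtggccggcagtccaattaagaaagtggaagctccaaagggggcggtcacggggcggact
Nhlrc1 encodes malin, a ubiquitin ligase that acts on glycogen metabolism, and Dusp23 a small dual-specificity phosphatase. Spsb1 encodes a SOCS-box adaptor of a ubiquitin ligase, Mphosph8 the chromodomain subunit of the HUSH silencing complex, Hdac5 a class IIa histone deacetylase and Rnd3 a small GTPase. Plekhf1 encodes an endosomal phosphoinositide-binding protein and Alkbh5 an RNA demethylase. The bases shown held 1 hexamer at Nhlrc1, Dusp23, Hdac5, Plekhf1 and Alkbh5, where it is not in capitals, 2 at Spsb1 and none at Rnd3. At Mphosph8 the match fell in the first bases after the start site and is shown among the shorter stretches that follow.

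The planned paired-domain core, GTCACGC, was found in 12 of the promoters whose peak reached 10-fold or more. It was planned with earlier results of these data known. Its 13 matches are given with 10 bases on each side (GRCm38.p6), read 5′ to 3′ on the strand that carries the core in capitals, to show how like the flanks are.
Spsb1 (chr4:149955123-149955149, plus strand): cacgccccatGTCACGCtccttcacca
Spsb1 (chr4:149955153-149955179, plus strand): cccgcctcagGTCACGCcctttttatc
Mphosph8 (chr14:56668240-56668266, plus strand): tcacggtcgaGTCACGCcgctggagcg
Plekhf1 (chr7:38228023-38228049, plus strand): caattctctgGTCACGCcccttcgagg
Cap1 (chr4:122886108-122886134, plus strand): tccacggttgGTCACGCcccgaggccc
Gtf2f2 (chr14:76010989-76011015, minus strand): gttgccgggaGTCACGCccatctagga
Ccng2 (chr5:93267512-93267538, plus strand): tccgcgcgcaGTCACGCgccccgcccc
Rbx1 (chr15:81466217-81466243, minus strand): ggagcctgcgGTCACGCcccttaaagg
Pdlim5 (chr3:142395726-142395752, plus strand): tcccctaatgGTCACGCccccatggtc
Lrp10 (chr14:54464065-54464091, minus strand): tgcttttgccGTCACGCtccggatcgc
Nmt2 (chr2:3284140-3284166, minus strand): ccaccccccgGTCACGCccatcacagc
Eno1 (chr4:150237099-150237125, plus strand): ggccgcctcgGTCACGCtcttctattg
Rps19 (chr7:24884395-24884421, plus strand): gctcgctccgGTCACGCccaaggaaac
In these 13 stretches and in the weaker members, the bases next to the core were not evenly used. Among all 50 matches in the 47 member promoters, a C followed the core in 70.0%, and the next base was C in 72.0%. Among the 487 matches with full flanks in all promoters of the table, these shares were 43.3% and 41.7%. A G preceded the core in 52.0% of the member matches and in 28.7% of those in all promoters. The flanks were looked at after the cores had been read, and the 50 matches overlap the 487.

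Gene-end peaks with a single neighbour were about as strong as the rest of the list. Strength is given as the authors' fold enrichment, the ChIP pileup plus 1 over the local background plus 1. Its median was 7.31 over the 582 peaks (quartiles 6.27 and 8.60, range 2.89 to 19.2, 95% interval of the median 7.08 to 7.59). Over all peaks on chromosomes 1 to 19 the median was 7.35 (quartiles 6.27 and 8.82). A fold of 10 or more was reached by 81 members, or 13.9% (11.3 to 17.0%), against a background of 14.5% of all peaks. Gene-end peaks with a second gene end within 5000 bp had a median of 7.08 and 12.8% at 10-fold or more. The largest fold in the list, 27.3, belonged to a peak over 10 kb from any gene end. The median pileup (ChIP fragments at the summit) was 14 in the members and 15 in all peaks, with a range of 9 to 80 in the members. The local background stood at its lowest value in the list, 0.977 fragments, under 54.6% of the members and under 44.1% of all peaks. At such pileups counting error is wide, and each interval given with a fold below is the exact Poisson 95% interval of its pileup, which covers counting error only.

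Where strand was known, the members lay at the 5′ end of their gene almost without exception. Of 487 peaks with a stranded promoter entry, 474 were nearer to the 5′ end (97.3%, Wilson 95% interval 95.5 to 98.4%) and 13 to the 3′ end. The share was 96.2% (92.9 to 98.0%) for gene-end peaks with a second gene nearby, 66.7% (62.0 to 71.1%) for peaks 1 to 10 kb from an end and 54.2% (51.3 to 57.0%) for peaks farther away. The rule itself treats both ends alike. For the other 95 members no strand was at hand.

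**Figure D1:**
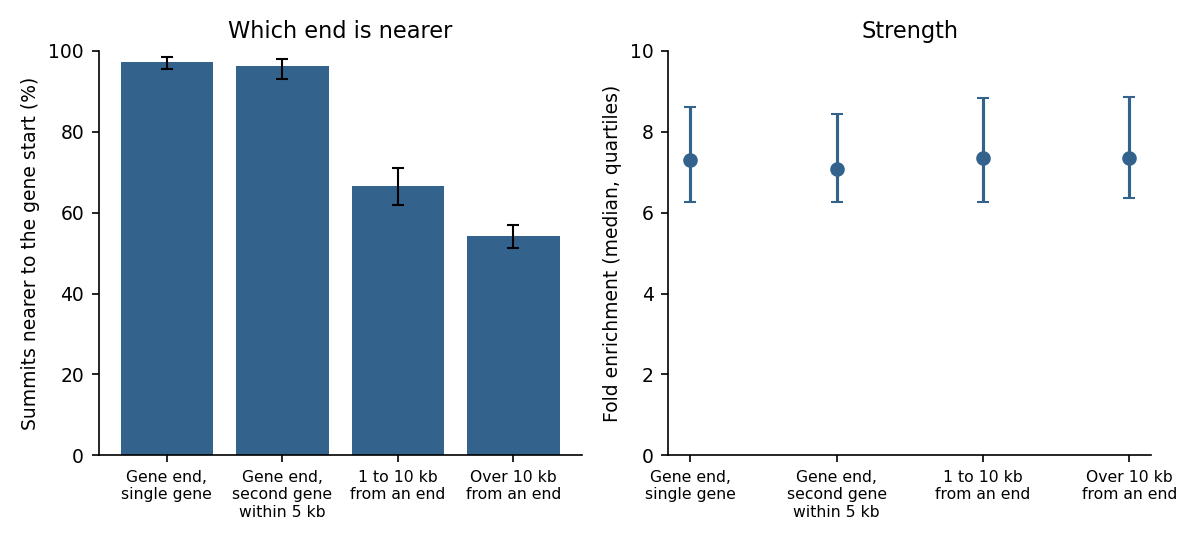
Left, share of summits nearer to the 5′ end than to the 3′ end of the nearest gene (y axis, %, with Wilson 95% intervals) for 4 groups of peaks by position (x axis). Right, median fold enrichment with quartiles for the same groups. The share is 97.3% for single-neighbour gene-end peaks and 54.2% for peaks over 10 kb from an end, whereas the medians lie between 7.08 and 7.35.

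Summits clustered just upstream of the 5′ end. The median position was -62.5 bp (quartiles -183 and 74 bp, negative being upstream). Upstream lay 300 of the 474 summits (63.3%), and 178 (37.6%) were within 100 bp of the gene's end, 325 (68.6%) within 250 bp and 415 (87.6%) within 500 bp. The fullest interval, 1 to 100 bp upstream, held 113 summits (23.8%). Median folds changed little with position, from 7.59 at 501 to 1000 bp upstream to 7.06 at 500 to 1000 bp downstream. Over all 582 members the nearer gene end was at a median of 156.5 bp and the second gene at 25471.5 bp. Inside the gene with the nearest end lay 216 summits (37.1%), against 45.9% of all peaks on these chromosomes. A summit that lay only inside some other gene was not counted in these shares.

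**Figure D2:**
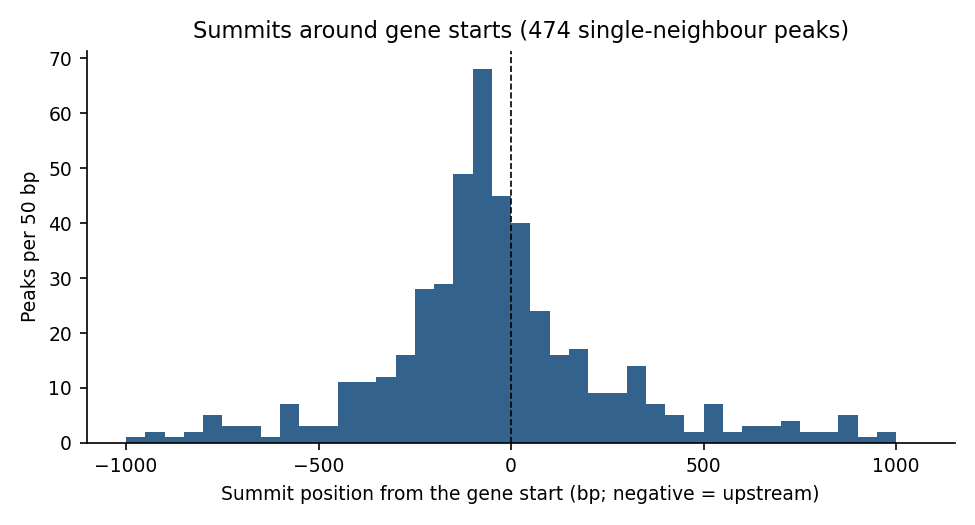
Number of peaks (y axis, per 50 bp) by the position of the summit from the gene's 5′ end (x axis, bp, negative upstream) for the 474 single-neighbour peaks at a 5′ end. The dashed line is the 5′ end, and 300 summits lie upstream of it.

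The 13 peaks nearer to a 3′ end were of ordinary strength except 1. The highest was 9.10-fold (5.51 to 14.3) beside 4930519L02Rik. Among the others were Mcl1, which encodes an anti-apoptotic BCL2-family protein, at 8.20-fold (4.89 to 13.02) and 948 bp from the end. Gadd45g, a stress-induced growth arrest gene, had 8.57-fold (5.11 to 13.6) at 480 bp. Ctdsp1, a phosphatase gene, had 8.77-fold (5.84 to 12.7) at 160 bp. Plekhs1, Ier5l, Wdr66, Bcat2, Slc4a3, Cxcl13, Bcan and Tmem88b lay between 8.79-fold and 5.39-fold. The exception was Lars2, which encodes the mitochondrial leucyl-tRNA synthetase. Its peak, chr9:123461840-123462155, had the highest pileup of all members, 80, over a local background of 27.0, and therefore their lowest fold, 2.89 (2.30 to 3.59). The next highest backgrounds were 4.16 at Hjurp, the chaperone of the centromeric histone CENP-A (6.78-fold), and 3.12 at Nup54, a nuclear pore gene (4.61-fold).

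At the top of the list stood Nhlrc1, 18 bp upstream of its 5′ end at chr13:47014637-47015109, where 37 ChIP fragments gave 19.2-fold (13.7 to 26.3). Dusp23 followed with 18.2 (12.8 to 25.1), 225 bp upstream. Spsb1 had 17.2 (12.0 to 23.9) at 135 bp upstream, and Mphosph8 17.2 (12.0 to 23.8). These 4 intervals overlap widely, so the order among them is not resolved at this depth.

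Dctpp1, a nucleotide pool pyrophosphatase gene, had 16.1-fold (11.1 to 22.7) and Tmem65, which encodes a mitochondrial membrane protein, 15.2-fold (10.4 to 21.5). Hdac5 and Rnd3 each had 14.7-fold (10.01 to 20.9). The same value, 14.7, was given to Ikzf2 (the zinc-finger factor Helios), Hmg20b (a subunit of a CoREST deacetylase complex) and Rps7 (a small-subunit ribosomal protein). Ypel5 reached 14.2, and Dcp1a (mRNA decapping), Arhgap28 (a GTPase-activating protein), Bsdc1 and Plekhf1 all 13.7. The lowest folds after Lars2 were 3.89 at Marchf6, a membrane-bound ubiquitin ligase gene, and 4.30 at Mycn, Grk6 and Prex1. The Mycn peak had a pileup of 10 and an interval of 2.26 to 7.57. The 3 widest members, at Dnpep (616 bp), Sptlc2 (574 bp) and Septin7 (546 bp), were not among the strongest, with 6.64, 8.60 and 6.58-fold, and the median width was 228 bp.

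Members at the limits of the rule had similar folds on either side. Just inside 1000 bp were Wdr66 (998 bp, 7.59-fold) and Zhx2 (990 bp, 10.1-fold), and just outside Akirin2 (1006 bp, 8.60-fold) and Nab1 (1008 bp, 6.58-fold). The nearest second gene that still left a peak in the set was Set, 5004 bp from the Pkn3 summit (7.35-fold). Peaks just lost to a second gene were those at Rbis, with E2f5 at 4977 bp (7.24-fold), and at Ppib, with Snx22 at 4941 bp (6.07-fold).

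The paired-domain core was more common in promoters that held a member's summit than in promoters at large. A match was counted anywhere in the 300 bases, whether or not the peak covered it. Of the 284 members whose summit fell in a 300-base promoter, 47 held GTCACGC on either strand (16.5%, 12.7 to 21.3%). Of 16457 promoters, 1 per protein-coding gene and the nearest to the gene's own start, 487 held it (2.96%). For a member with several start sites, the promoter of the site nearest to the summit was used instead. Members had CpG-rich promoters: the observed-to-expected CpG ratio was 0.6 or more in 90.5% of the 284, against 49.8% of all promoters, and their median GC content was 63.5% against 56.7%. Among CpG-rich promoters alone, 4.96% held the core, and among CpG-rich promoters with no other gene end within 5000 bp 5.03%. Of the 190 members at a 5′ end whose summit fell outside the promoter, 7 held it in that promoter (3.68%, 1.80 to 7.41%). Gene-end peaks with a second gene nearby had the core in 20 of 145 promoters (13.8%, 9.11 to 20.3%), an interval that overlaps that of the members. The larger sets include member genes, and peaks are not replicates, so these shares describe the list of 1 ChIP library. The core was also chosen with earlier results of these data known, so its shares are descriptions only.

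The share of promoters with the core was higher in each higher class of fold. It was 9.80% of 51 promoters under 6-fold, 14.8% of 122 from 6 to 8-fold, 19.7% from 8 to 10-fold and 24.0% of 50 (14.3 to 37.4%) at 10-fold or more. Intervals of neighbouring classes overlap, and so do those of the lowest and the highest class. The median fold was 8.09 in the 47 members with the core (quartiles 6.58 and 9.86) and 7.08 in the 237 without (6.07 and 8.79). The core was also close to the summit. The match nearest to the summit was at a median of 30 bp, and in 29 of 47 promoters it was within 50 bp. A position taken anywhere in the same windows was at a median of 83 bp, and 32.1% of positions were within 50 bp. The distances are to the nearest match, and 3 of the 47 promoters held more than 1. The Sp1 GC box was at a median of 37.5 bp and the CCAAT box at 52 bp. However, 154 of 223 and 67 of 131 promoters with these held 2 or more matches. Their distances therefore cannot be set against that of the core. Of motifs rarely repeated in a promoter, TAATTA was at a median of 40.5 bp, with 63.6% within 50 bp. GTCACAC was at 48 bp, the AP-1 site TGANTCA at 50 bp and the CRE TGACGTCA at 52 bp. Each of these was in 11 to 15 promoters. The TATA box was at 77.5 bp, CAGCTG at 89 bp, CACGTG at 91.5 bp and the YY1 site at 92.5 bp. Closeness was thus not particular to the core.

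**Figure D3:**
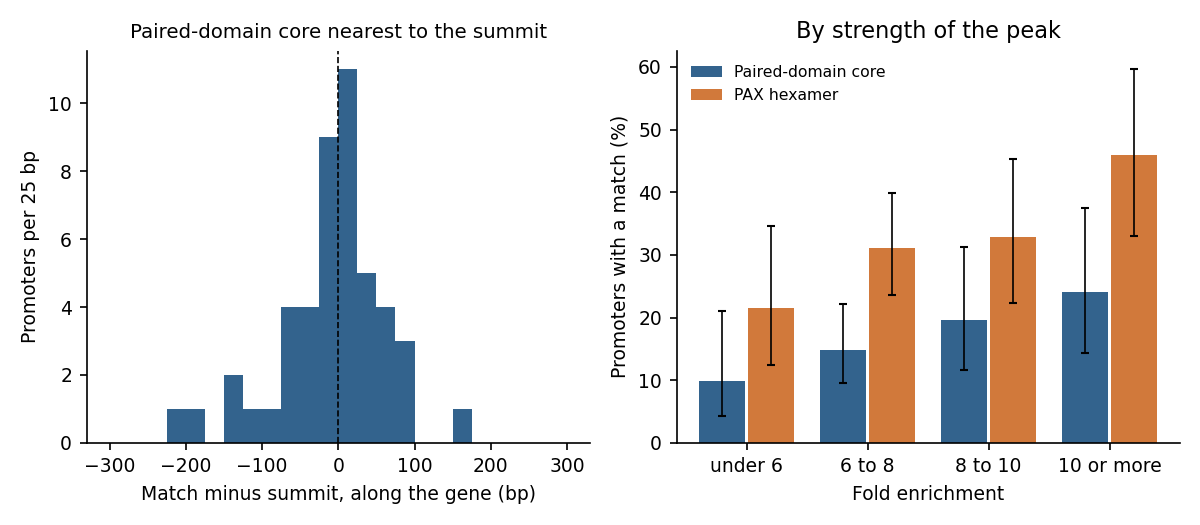
Left, distance of the nearest paired-domain core from the summit (x axis, bp, positive toward the gene body) in the 47 member promoters that hold it (y axis, promoters per 25 bp). Right, share of member promoters with the planned core and with the hexamer adopted later (y axis, %, with Wilson 95% intervals) by fold enrichment (x axis). The core's share is 9.80% under 6-fold and 24.0% at 10-fold or more, with overlapping intervals.

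Single promoters show the range. At Spsb1 the 2 cores lay 5 and 25 bp from the summit, and at Gtf2f2, which encodes a subunit of TFIIF, the core was 5 bp away. In Cap1, an actin regulator, and Nmt2, an N-myristoyltransferase gene, it was 8 bp away. Rbx1, the RING subunit of cullin ligases, and Eno1, the glycolytic enolase, had it at 16 and 15 bp. In Ccng2, the cyclin G2 gene, it was 159 bp away, and in Plekhf1 81 bp. Among weaker members, Cdkn1b, which encodes the cell cycle inhibitor p27, held a core 61 bp from a summit of 6.07-fold (3.28 to 10.5).

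The hexamer GTCACG is part of both the core and the form GTCACGG, so its matches include theirs. It was taken from the promoters of the strongest members and is counted in those same promoters, so its shares are descriptions only. It was present in 92 of 284 (32.4%), in 46.0% at 10-fold or more, in 15.3% of members with the summit outside the promoter, in 10.3% of all promoters and in 15.9% of CpG-rich ones. GTCACGG, chosen in the same way, was in 29 of 284 (10.2%) against 2.68% of all promoters. Nhlrc1 had 4 such matches within its 300 bases, of which 1 is in the bases shown. The hexamer nearest to the summit was 5.5 bp away at Spsb1, 20.5 bp at Hdac5, 29.5 bp at Mphosph8, 31.5 bp at Nhlrc1 and 176.5 bp at Dusp23. Rnd3 had no hexamer in its 250 bases, although its peak was as strong as that of Hdac5.

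Sites for the homeodomain and for other factors were counted in the same promoters. In all, 18 motifs were searched on both strands, 15 of them spelled in letters at the outset, with earlier results of these data known. The homeodomain site TAATTA was in 3.87% of the 284 member promoters and in 4.62% of all promoters, and in 1.93% of CpG-rich ones. The inverted pair TAAT and ATTA with 2 bases between was in none of the 284, in 0.35% of all promoters and in 0.12% of CpG-rich ones. A second paired-domain form, GTCACAC, was in 3.87%, 3.40% and 2.83%. Plekhf1 held both the core and a TAATTA, the latter 12.5 bp from its summit, and in Alkbh5 (12.6-fold, 8.28 to 18.6) TAATTA was 50.5 bp away.

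For the factors of immediate early and cAMP responses, the AP-1 site TGANTCA was in 5.28% of member promoters, 7.12% of all and 3.44% of CpG-rich ones. The CRE TGACGTCA was in 4.23%, 2.40% and 3.93%, and the serum response fragment CCATATTA in 0.70%, 0.31% and 0.18%. The E-box CANNTG, bound by muscle and other basic helix-loop-helix factors, was in 58.8%, 68.4% and 58.5%. Its MyoD form CAGCTG was in 14.8%, 15.2% and 13.0%, and its form CACGTG in 8.10%, 7.97% and 11.5%. Ufl1 (10.6-fold) was the strongest member with an AP-1 site in the 250 bases upstream, Hlf (8.09-fold) with a CRE and Nme1 (9.10-fold) with a YY1 site.

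Among general promoter elements, the Sp1 GC box GGGCGG was in 78.5% of member promoters, 47.3% of all and 74.4% of CpG-rich ones. The CCAAT box was in 46.1%, 39.1% and 37.7%. The ETS site CCGGAAG was in 13.7%, 12.3% and 20.1%, the NRF1 element TGCGCA in 13.03%, 10.1% and 17.2%, and the YY1 site AAGATGGC in 3.87%, 3.21% and 5.09%. The TATA box TATAAA was in 3.17% of member promoters, 13.5% of all and 5.82% of CpG-rich ones. A match is a description of the letters and not a bound site.

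**Figure D4:**
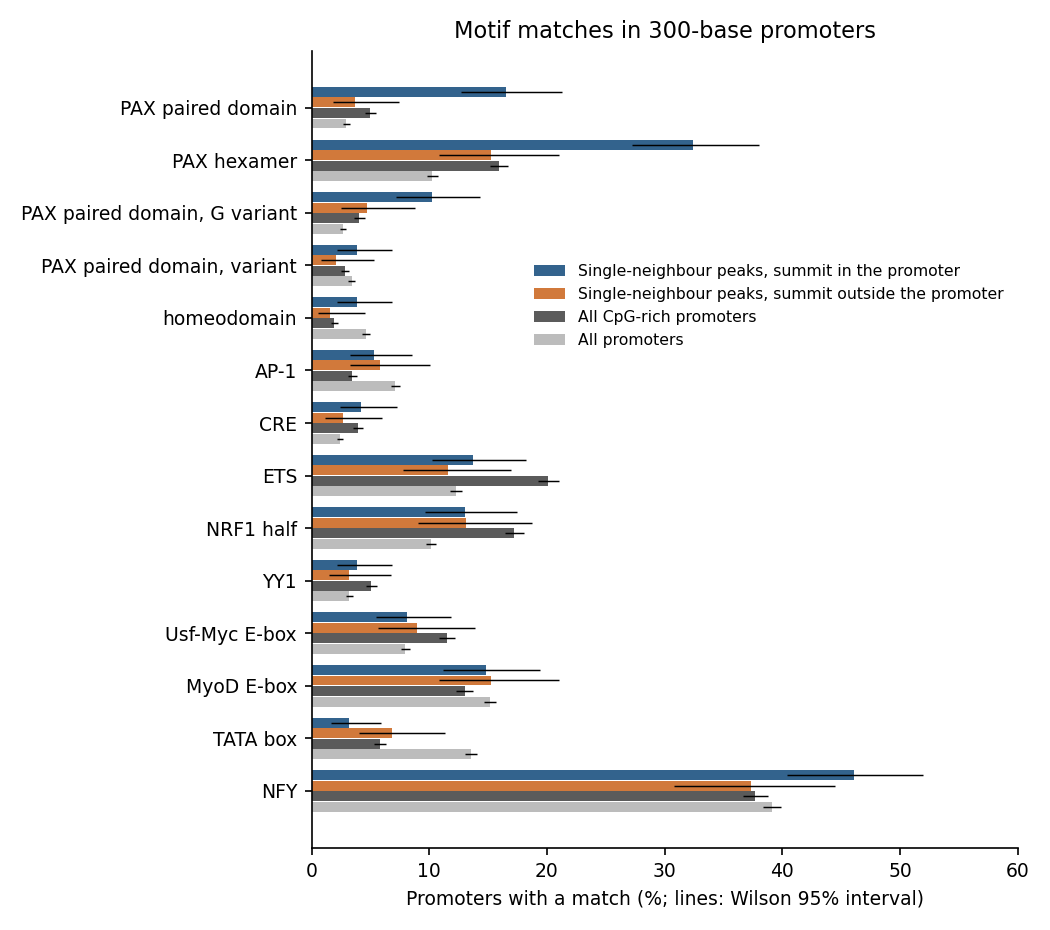
Share of 300-base promoters with a match (x axis, %, lines are Wilson 95% intervals) for 14 of the motifs (y axis) in members with the summit in the promoter, members with it outside, all CpG-rich promoters and all promoters. The paired-domain core stands at 16.5% in the first set and between 2.96% and 4.96% in the others. The hexamer and the G variant were chosen after the promoters were seen.

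Genes with such a peak were spread over many cellular roles, and of the lists used, phosphatases and feedback regulators had the highest share. Of the 20558 protein-coding genes on chromosomes 1 to 19, 569 had a member peak, a background of 2.77%. Among the 16835 genes with at least 1 end free of other gene ends within 5000 bp the share was 3.38%. Of 991 genes in 21 lists, 77 had one, and 492 of the 569 member genes were in no list. The lists hold many widely expressed genes, and their promoter CpG content was not tested as part of these shares. The lists were chosen with earlier results of these data known, so their shares and their order are descriptions only. No list was tested for enrichment.

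In the list of phosphatases and feedback regulators, 10 of 49 genes had a member peak (20.4%, 11.5 to 33.6%), with a median fold of 9.09. After Dusp23 and Spsb1, the strongest were Socs5, a suppressor of cytokine signalling, at 12.6-fold (8.28 to 18.6) and Spry2, an inhibitor of receptor tyrosine kinase signalling, at 10.1-fold (6.29 to 15.5). Dusp7, Ppp6c, Ptpn9, Spred1, Spred2 and Ppp2r1a made up the rest, down to 5.55-fold. Among the immediate early genes, induced rapidly by mitogens or stress without new protein synthesis, 6 of 50 had one (12.0%, 5.62 to 23.8%). Atf3, a stress-induced bZIP factor, had 8.09-fold (4.75 to 13.02) and Nr4a1, an orphan nuclear receptor, 7.59-fold (4.38 to 12.4). The Nr4a1 summit was 266 bp from the gene's outermost 5′ end, but at -12678 bp from its nearest start site with a promoter sequence. A further Nr4a1 peak, not a member and 8016 bp from a gene end, had 5.06-fold (2.59 to 9.15). Trib1, a pseudokinase gene, had 2 peaks of 7.08 and 7.35-fold. Gadd45b, Dusp1 and Fosl2 were the others.

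All 3 Gadd45 genes of the cell cycle list had a member peak: Gadd45g at 8.57-fold, Gadd45b at 7.59-fold (4.38 to 12.4) and Gadd45a at 7.35-fold (4.24 to 12.0). None was within 250 bp of a gene end: the summits lay 480 bp from the 3′ end of Gadd45g, 927 bp upstream of the 5′ end of Gadd45b and 894 bp downstream of that of Gadd45a. With Cdkn1b and Mycn they made 5 of 49 genes (10.2%, 4.44 to 21.8%).

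Protein turnover and synthesis were represented by 8 genes each. In the ubiquitin and proteasome list, 8 of 57 genes (14.0%, 7.29 to 25.3%) had one, led by Rbx1 at 10.6-fold (6.69 to 16.1) and the proteasome ATPase gene Psmc6 at 10.2-fold (6.47 to 15.3). Ube2n, a ubiquitin-conjugating enzyme gene, also had 10.2-fold (6.71 to 14.8), and Psma3 7.24-fold. The Psma3 summit was 681 bp from the gene's outermost 5′ end, but at -4659 bp from its nearest start site with a promoter sequence. In the translation list, 8 of 60 genes (13.3%, 6.91 to 24.2%) had one. Rps19 had 10.1-fold (6.29 to 15.5), Rpl27 9.61-fold (5.90 to 14.9), Eif3d 8.60-fold (5.13 to 13.6) and Rps23 8.20-fold (5.16 to 12.5). Brf1, which encodes an initiation factor of RNA polymerase III, led the tRNA and ribosome biogenesis list at 12.3-fold (8.03 to 17.996), where 5 of 58 genes had a peak. Tars, Utp3, Gar1 and Pes1 were the others.

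Nuclear regulators followed. Of the chromatin regulators, 7 of 58 had a member peak (12.1%, 5.97 to 22.9%). After Hdac5 came Chd1, a remodeller linked to active genes, at 9.31-fold (5.72 to 14.4). The SWI/SNF subunit gene Arid1a had 2 peaks of 7.08 and 7.59-fold, and the Polycomb gene Eed 1 of 7.08-fold (4.01 to 11.8). Kmt2a, Arid1b and Ctcf reached 6.86, 5.47 and 4.69-fold. Of the RNA polymerase II and Mediator genes, 4 of 57 had one: Med23 at 12.1-fold (7.88 to 17.96), Med6 and Tcea1 at 10.1-fold and Ccnt2 at 7.06-fold. Of the splicing genes, 5 of 59 had one, with Rbm25 at 11.3-fold (7.25 to 16.8), Snrpb at 9.61-fold, Srsf1 at 7.59-fold and Srsf10 at 7.08-fold. The Rbm25 summit was 113 bp from the gene's outermost 5′ end, but at -3615 bp from its nearest start site with a promoter sequence.

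Of the chaperone genes, 6 of 50 had a member peak (12.0%, 5.62 to 23.8%): Chordc1 at 9.61-fold, Bag3 and Hspa1b at 8.60-fold, Hspa13 at 8.33-fold, Hspa8 and Hspa9. Hspa1b is uncertain, since Hspa1a beside it has an almost identical sequence. The vesicle traffic list had 4 of 60, with Rab2a at 8.09-fold, Vamp4 at 7.08-fold, Sec16a at 7.03-fold and Vps26a at 5.83-fold. The mitochondrial list had 3 of 59 (Cox6c at 9.61-fold, Ndufb8 at 6.86-fold and Uqcrfs1 at 5.55-fold), and the autophagy list 2 of 47 (Optn at 8.60-fold and Wipi1 at 8.09-fold). Of the zinc finger, Klf and Sox factors, 2 of 58 had one, Sox9 at 13.2-fold (8.69 to 19.2) and Zfp143 at 6.67-fold, a share of 3.45% close to the background. None of 59 DNA replication and repair genes had one (Wilson upper limit 6.11%), although 4 had a gene-end peak with a second gene nearby.

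Lists of muscle genes and of markers of other cell types held 0 to 2 such genes each. The background of 2.77% lay inside the interval of every one of these lists. Among 43 muscle stem cell genes, 2 had a member peak (4.65%, 1.28 to 15.5%): Gas1, a growth arrest gene expressed in quiescent cells, at 7.35-fold (4.24 to 12.0), and the Notch receptor gene Notch2 at 6.07-fold (3.28 to 10.5). None of 49 myogenic differentiation genes had one (upper limit 7.27%), although 2 had a gene-end peak with a second gene nearby. Of the markers of other cells, Tek, the endothelial angiopoietin receptor gene, had a peak of 11.6-fold (7.57 to 17.0) and was 1 of 20 endothelial markers. There was none among 20 leukocyte, 20 fibro-adipogenic and 20 hepatocyte genes (upper limit 16.1% each). A gene-end peak with a second gene nearby was found at 1 fibro-adipogenic gene. ChIP peaks do not measure expression, so the labelled cell type could not be checked from them.

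**Figure D5:**
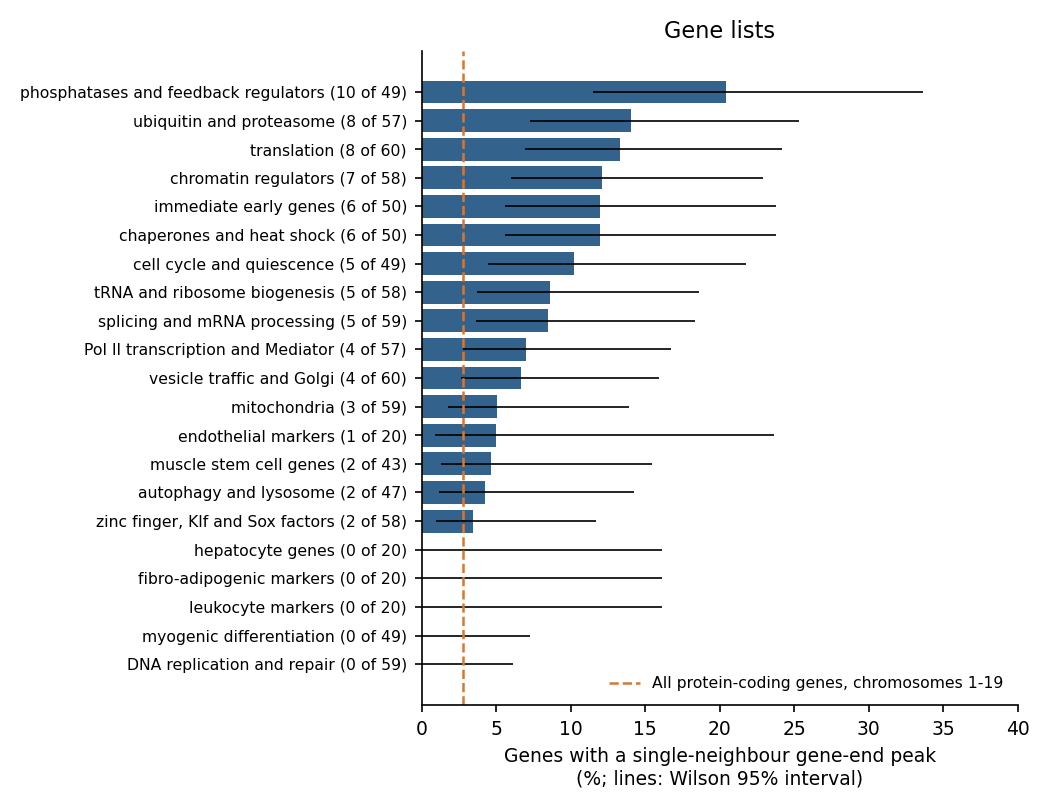
Share of each list's genes on chromosomes 1 to 19 with a single-neighbour gene-end peak (x axis, %, lines are Wilson 95% intervals), with the counts beside each list's name (y axis). The dashed line is the 2.77% of all protein-coding genes. Phosphatases and feedback regulators have the highest share, 20.4%, and 5 lists have none.

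At 13 genes the end carried 2 separate member peaks, with summits 256 bp (Erbb3, a receptor tyrosine kinase gene) to 1082 bp (Pkm, the muscle-type pyruvate kinase gene) apart. The folds of a pair were mostly alike. Efcab2 had 8.09 at both, and Coq10b, a coenzyme Q gene, 5.86 at both. Crem, a cAMP-responsive factor gene, had 7.35 and 7.59, and Esyt1, an endoplasmic reticulum tether gene, 6.07 and 6.37. The widest gaps were at Vps36, an ESCRT subunit gene, with 12.6 (8.28 to 18.6) and 6.86 (3.88 to 11.4), and Lpcat3, a phospholipid acyltransferase gene, with 10.6 (6.69 to 16.1) and 6.07 (3.28 to 10.5). The intervals overlap at both. Pkm had 9.80 and 7.59, Nucks1 7.84 and 5.06, Pcbp2 6.27 and 4.87, Cnep1r1 5.79 and 4.69, and Erbb3 6.58 and 6.07. Beyond these, 70 of the 569 genes had a further peak nearest to them within 50 kb, 82 peaks in all and at most 3 at a gene (Adamts5 and Odc1).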

How the data were processed

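One GFP ChIP library and 1 input library of sorted muscle stem cells, grouped by their titles, were compared by the authors. GRCm38, bcl2fastq 2.16, HISAT2 and MACS2 2.1.1 are named per the submitters' processing notes, without role or order. Peaks were called with MACS 2.1.1.20160309 on the unpooled ChIP library against the input, at a q-value limit of 0.01, a fragment length of 172 bp and 1 tag kept per position, and the input was scaled to the ChIP depth by 0.520, per the file headers. Pileup, as deposited, is unscaled coverage signal, and fold enrichment a ratio. MACS gave each peak a Poisson p-value and its q-value, both deposited as −log10.

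The local background was recovered from the deposited fold and pileup. Gene ends came from RefSeq (GRCm38.p6): 21774 protein-coding genes, after 113 genes of scaffolds and patches were left out, without strand. Strand, start sites and 300-base promoters came from a RefSeq promoter table that held 16457 genes of chromosomes 1 to 19. It matched 487 of 582 members. A start site there can lie inside the gene's outermost end. Positions at 5′ ends are from the gene's outermost end, and positions of promoters and motifs from the start site. Shares carry Wilson 95% intervals and pileups exact Poisson intervals. They cover counting error only, and no p-value was computed.

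The members, gene lists and motifs were chosen with earlier results of these data known. Named genes were those of the 15 highest folds (16 with a tie) and the 5 lowest, up to 4 per list, genes with 2 member peaks, the 3 highest backgrounds, the 3 widest and those at the limits of the rule, of which 1 is not reported here. The 13 genes at 3′ ends, the genes whose core sequences are shown, the further list members and those with further peaks were named after their values were seen. Of the 1011 listed genes, 3 were matched by an older symbol and 1 was not matched. The hexamer, GTCACGG, the core flanks, the split by summit inside or outside the promoter, the CpG-rich sets, the fold classes and the non-coding neighbours were also added after the data were seen. The promoter search and the peak classes were tested on simulated data. Python 3.11.15, numpy 2.4.6, pandas 2.3.3 and scipy 1.17.1 were used.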

Additional observations from a re-analysis of the deposited data

How the results depend on the processing

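Of 8 alternative settings, 7 left the number of single-neighbour peaks, their median fold, their share at 10-fold or more and the number of listed genes within the limits set for an unchanged value. The exception for all 4 was the stricter set of peaks, with a −log10 q no lower than the median, which selects on strength by construction: 286 members, a median fold of 8.60, 28.3% at 10-fold or more and 43 listed genes. The share at the 5′ end was 94.6% with a window of 2500 bp and between that and 98.1% in all 8. The share of promoters with GTCACGC stayed between 15.7% and 20.1% in all 8, and the hexamer, added after the data were seen, gave 32.4%. Single lists moved more. The immediate early genes had 10 members and the muscle stem cell genes 5 with the 2500 bp window. In the stricter set the muscle stem cell genes had 0, and the phosphatases and feedback regulators 6. The translation genes had 4 when no second gene was allowed within 10000 bp. No paired analysis was possible because there was 1 library of each kind. A median pileup of 14 fragments sets the width of the intervals, and folds that differ by less than those intervals were not told apart.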

Other observations

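Non-coding genes often had an end near these peaks, although the rule counts protein-coding neighbours only. A non-coding gene ended within 1000 bp of 123 of the 582 summits (21.1%), and in 112 of them it was a long non-coding RNA. Of the 474 start sites at members with a summit near the 5′ end, 101 had such a neighbour (21.3%), against 9.60% of all promoters and 16.6% of CpG-rich promoters without another protein-coding end within 5000 bp. At Dusp23 the lncRNA gene Gm35601 ended 219 bp from the summit, at Socs5 Gm30510 at 78 bp and at Mapk6 4933433G15Rik at 95 bp. The microRNA genes were Mir8101 at Hdac5 (114 bp), Mir7238 at Ankrd10 (766 bp) and Mir5133 at Glce (399 bp). Transfer RNA genes lay near the peaks at Fbxo31, Psma3, Sacm1l and Acp6, and the small nucleolar RNA gene Snord13 was 15 bp from the summit at Tti2 (7.55-fold). Non-coding genes were looked at after the data were seen.

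Genes with a member peak had a median length of 28271 bp, against 17578.5 bp for all protein-coding genes, which include them. Their length was not compared with that of genes with an end free of other gene ends within 5000 bp. Members were chosen at such ends, so whether the difference goes beyond that choice was not tested. Only 1 peak lay within 1000 bp of both ends of its gene. By chromosome, the share of protein-coding genes with a member peak ran from 1.58% on chromosome 7 to 4.40% on chromosome 1.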
